A study of Homo sapiens with 9 samples.

Results

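The genes described here encode receptors for the constant region of antibodies (Fc receptors) and inhibitory receptors of the leukocyte immunoglobulin-like receptor family (LILRB) as expressed by THP-1, a cell line from human acute monocytic leukemia. They were taken by symbol from a list of 10 genes. FCGR1A, FCGR2A, FCGR2B, FCGR3A, FCER1G, FCGRT, LILRB1, LILRB2 and LILRB4 were found, which is 9 of the 18522 genes in the table. LILRB3, the remaining gene of the list, is not analysed here. Of the 9 genes, 8 passed the filter on low values (at least 10 in no fewer than 3 libraries), and LILRB4 did not.

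Poly(A) RNA was sequenced from THP-1 cells after lentiviral transduction with shRASSF2-1 or shRASSF2-2, which are different short hairpin RNAs against RASSF2, or with the control hairpin shCTRL. All groups, the control included, went through selection with 1 ug/mL puromycin lasting 96 h, and 2.0 M viable cells were used per condition. Each of the 3 groups had 3 libraries, and the question was how loss of RASSF2, a Ras association domain protein that binds Hippo pathway kinases, changes gene expression. Every group is the same cell line, and the labels name no clone.

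Libraries held between 13.3 and 20.1 M counted reads. RASSF2 itself had 134, 198 and 159 normalized reads with shRASSF2-1 and 331, 342 and 262 with shRASSF2-2, against 1104, 1078 and 1010 with shCTRL, so both hairpins lowered their target and shRASSF2-1 lowered it further. Control replicates 1 and 2 carry a flow cell code of their own in the labels, while control replicate 3 shares its code with all 6 knockdown libraries. Control replicate 1 also stood apart on the third principal component, which held 7.41% of the variance. Results are therefore also given for the 7 libraries with that common code, where a single control stands for its group and is assumed to vary as the knockdown libraries do. Mitochondrial transcripts took 4.31% to 5.24% of reads with shRASSF2-1, 2.61% to 3.61% with shRASSF2-2 and 5.86% to 7.45% with shCTRL, and the part of this in the results was not tested. Nothing in the labels states that replicate libraries are separate cultures, so p-values describe a spread among libraries that could be technical.

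The monocytic label was checked against markers. Of 17 monocyte and myeloid leukemia markers, 16 were in the table and 14 were above 0 in every library, among them SPI1, which encodes PU.1, the transcription factor of the myeloid lineage. The summed level of that list was 27657 to 30789 normalized reads with shRASSF2-1 and 54274 to 56659 with shRASSF2-2, against 35684 to 42998 with shCTRL. CD14, the lipopolysaccharide co-receptor of mature monocytes, averaged 122 with shRASSF2-1 and 400 with shRASSF2-2, against 22.8 with shCTRL. Other members of the list went the other way. The calcium-binding S100A9 averaged 1719 with shRASSF2-1 and 2664 with shRASSF2-2, against 7730 with shCTRL, and S100A8 averaged 392 and 711, against 2254. Lysozyme (LYZ) averaged 3086 and 2828, against 7012, CEBPA, a myeloid transcription factor, 4112 and 4307, against 6714, and myeloperoxidase (MPO) 2.40 and 4.10, against 55.2. The summed level of 9 macrophage markers, all in the table, was 2035 to 2460 with shRASSF2-1 and 12858 to 15205 with shRASSF2-2, against 553 to 587 with shCTRL. In bulk RNA, a change in how many cells express a gene and a change in RNA per cell cannot be told apart.

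Fc gamma receptors bind IgG on phagocytes. FCGR1A encodes CD64, the high-affinity receptor, FCGR2A the activating CD32A and FCGR3A the activating CD16A. Activating receptors signal through an ITAM, a tyrosine motif that recruits the kinase SYK. CD64 and CD16A borrow it from the common gamma chain made by FCER1G, whereas CD32A carries it in its own tail. FCGR2B encodes CD32B, the inhibitory member, whose ITIM motif recruits the lipid phosphatase SHIP-1. FCGRT encodes the heavy chain of FcRn, which pairs with beta-2 microglobulin and protects IgG and albumin from lysosomal breakdown. LILRB1 and LILRB2 bind HLA class I molecules and recruit the phosphatases SHP-1 and SHP-2 through ITIMs, and LILRB4 is a related inhibitory receptor of monocytic cells.

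Values per gene are the authors' normalized read counts. Differences are log2 fold changes from limma on log2(value + 1) across 15465 genes, and a gene was called at a Benjamini-Hochberg adjusted p (FDR) under 0.05. With shRASSF2-1 against shCTRL, 2 of the 8 members tested rose, FCER1G and LILRB2, beside 26.9% of all genes tested. FCGR1A and FCGR2A fell, 2 of 8 beside 29.2% of all genes, and 4 members were not called. The 4 members called compare with 56.1% of all genes in either direction (56.4% by edgeR, 57.9% by DESeq2 and 57.5% in the 7 libraries). With shRASSF2-2 against shCTRL, 6 rose, beside 31.8% of all genes, namely FCGR2A, FCGR2B, FCGR3A, FCER1G, FCGRT and LILRB2. FCGR2B and FCGR3A passed the filter on low values only through their shRASSF2-2 libraries. In comparisons with shRASSF2-2 their direction was therefore partly fixed in advance. By limma 0 members fell with shRASSF2-2, beside 29.1% of all genes, and 0 did so at an unadjusted p under 0.05, by edgeR or by DESeq2. Called in either direction were 60.9% of all genes (60.7% by edgeR, 61.6% by DESeq2 and 61.5% in the 7 libraries). With shRASSF2-2 against shRASSF2-1, 5 members rose, beside 30% of all genes, namely FCGR1A, FCGR2A, FCGR2B, FCER1G and FCGRT. Again 0 fell by limma, beside 28.5% of all genes, with 0 at an unadjusted p under 0.05, 0 by edgeR and 0 by DESeq2. In either direction 58.5% of all genes were called (58.9% by edgeR, 60% by DESeq2 and 71.3% in the 7 libraries).

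The median log2 fold change of the 8 members was 0.19 with shRASSF2-1 against shCTRL, where that of all genes tested was 0.02. It was 1.74 with shRASSF2-2 against shCTRL, where that of all genes was 0.04, and 1.53 between the hairpins, where that of all genes was -0.03. The ranges of the libraries did not overlap for 5 members with shRASSF2-1 against shCTRL (61.3% of all genes), 7 with shRASSF2-2 against shCTRL (64.5%) and 8 with shRASSF2-2 against shRASSF2-1 (74%). The medians and counts that involve shRASSF2-2 include FCGR2B and FCGR3A, which passed the filter only through that group. The comparisons with shCTRL share the same control libraries. The plot of the members by library shows these patterns.

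**Figure D1:**
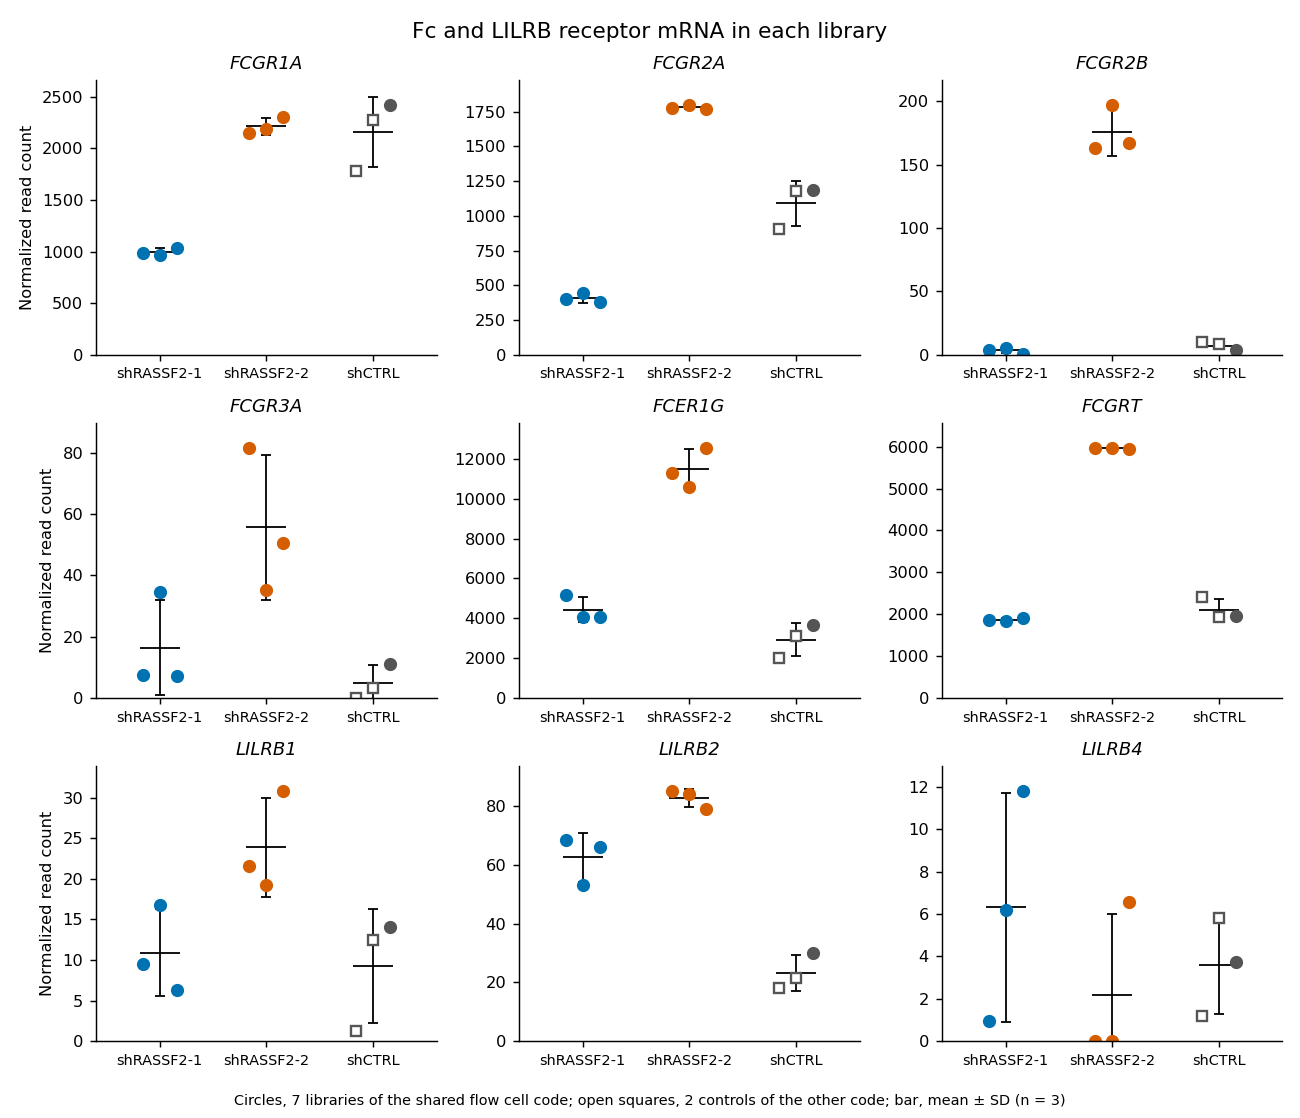
Normalized read counts (vertical axis, linear from 0, a scale per gene) of the 9 genes in each library, for shRASSF2-1, shRASSF2-2 and shCTRL; bars are mean ± SD with n = 3, and open squares are the 2 controls with a flow cell code of their own. FCGR1A and FCGR2A were lowest with shRASSF2-1, FCGR2B stood above 160 only with shRASSF2-2, and LILRB2 was above the controls with both hairpins.

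**Figure D2:**
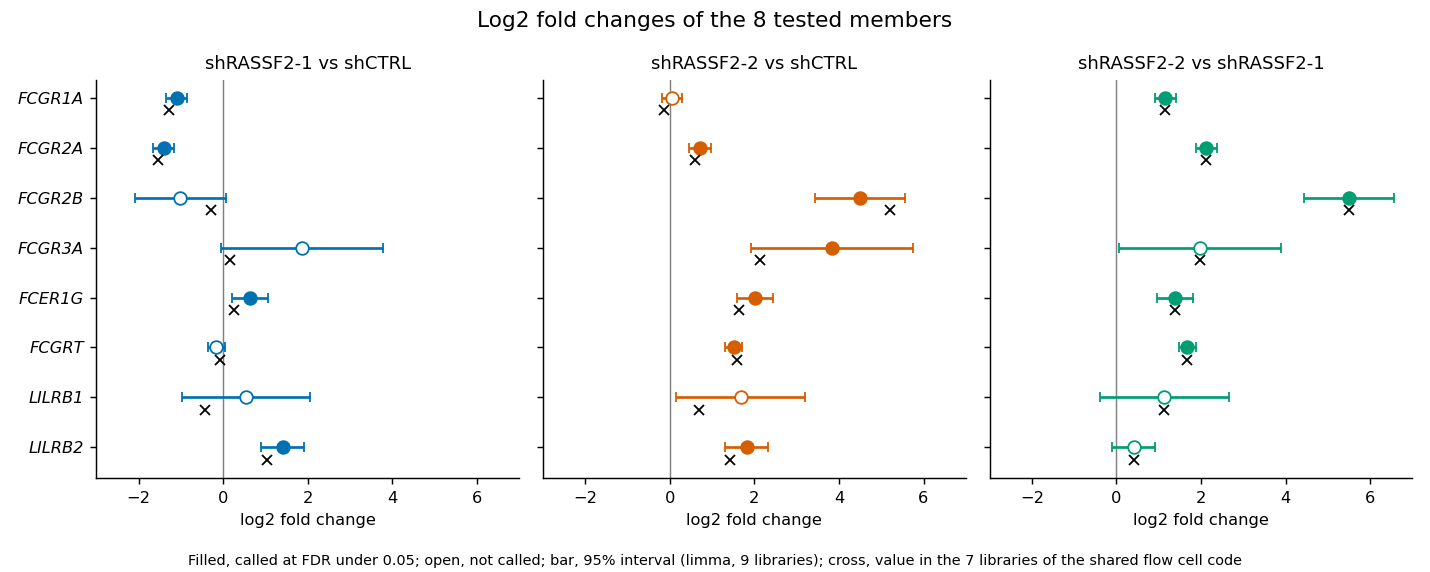
Log2 fold changes of the 8 members tested (horizontal axis) for each comparison, with 95% intervals from limma; filled points were called at an FDR under 0.05, and crosses are the values in the 7 libraries with a common flow cell code. FCGR2A lay at -1.41 with shRASSF2-1 and at 0.72 with shRASSF2-2, while the crosses of FCER1G and FCGR3A moved toward 0 in the comparisons with shCTRL.

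FCGR1A (CD64; Entrez 2209, chromosome 1, 149782694 to 149800609, plus strand, GRCh38) was lower with shRASSF2-1 and near the control with shRASSF2-2. Its normalized read counts were 986, 966 and 1037 with shRASSF2-1 and 2147, 2190 and 2308 with shRASSF2-2, against 1777, 2270 and 2423 with shCTRL. All 3 shRASSF2-1 libraries lay below every other library, and the shRASSF2-2 and control libraries overlapped. FCGR1A fell by 1.10 on the log2 scale with shRASSF2-1 (SE 0.111, limma adjusted p = 1.63e-05), and its value was 0.05 with shRASSF2-2 (95% interval -0.20 to 0.30, limma adjusted p = 0.713). That interval holds changes in either direction, so FCGR1A with shRASSF2-2 is not shown to equal the control. Between the hairpins the difference was 1.15 (limma adjusted p = 8.73e-06). With scaling by total reads the fall with shRASSF2-1 was -0.72 and the difference between the hairpins 0.76, both called.

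FCGR2A (CD32A; Entrez 2212, chromosome 1, 161505457 to 161524048, plus strand) went in opposite directions with the hairpins. It had 399, 445 and 381 normalized reads with shRASSF2-1 and 1778, 1801 and 1771 with shRASSF2-2, against 902, 1182 and 1189 with shCTRL. The 3 groups did not overlap, with the controls in the middle. FCGR2A fell with shRASSF2-1 by 1.41 on the log2 scale (SE 0.115, limma adjusted p = 4.09e-06). It rose with shRASSF2-2 by 0.72 (SE 0.115, limma adjusted p = 0.000303), and the direct difference of shRASSF2-2 over shRASSF2-1 was 2.13 (limma adjusted p = 1.24e-07). In the 7 libraries with a common flow cell code the values were -1.54 and 0.58, both called. In the authors' deposited table, whose single comparison does not name its libraries, the log2 fold change of FCGR2A was 0.0051 (adjusted p-value 0.996).

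The promoters of these genes are shown because FCGR1A and FCGR2A, which lie far apart on chromosome 1, were the members that fell with shRASSF2-1 and share a run of 20 bases just upstream of their starts. The sequences are the 250 bases before the RefSeq transcript start (GRCh38.p14), at chr1:149782444-149782693 for FCGR1A and chr1:161505207-161505456 for FCGR2A, both on the plus strand. Capitals mark the shared run and, in FCGR1A, also a GAS match.
FCGR1A: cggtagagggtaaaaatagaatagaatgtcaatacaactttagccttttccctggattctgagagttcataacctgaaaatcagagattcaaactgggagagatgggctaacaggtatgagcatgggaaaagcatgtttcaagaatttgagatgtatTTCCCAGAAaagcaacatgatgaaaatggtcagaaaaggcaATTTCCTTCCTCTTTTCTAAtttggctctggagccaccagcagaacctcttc
FCGR2A: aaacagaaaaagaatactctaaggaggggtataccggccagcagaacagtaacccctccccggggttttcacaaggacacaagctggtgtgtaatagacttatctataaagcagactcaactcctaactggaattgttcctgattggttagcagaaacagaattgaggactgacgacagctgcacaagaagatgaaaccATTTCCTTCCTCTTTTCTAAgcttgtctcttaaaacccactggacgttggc
The run lies at -52 to -33 in FCGR1A and at -51 to -32 in FCGR2A, counted from the start, and was found in 2 of 35116 RefSeq promoter windows, those of these 2 genes. It was picked as the longest run this pair shares, in a search over all pairs of members, so its rarity is no separate result. Its part in the fall with shRASSF2-1 was not tested. The run holds TTCCTC, the reverse complement of GAGGAA, which was searched on both strands as the core of sites of PU.1. That core was present in 23.6% of all windows of this length. The FCGR1A window also holds TTCCCAGAA at -93, a match to TTCNNNGAA (GAS), the letters recognised by STAT factors downstream of interferons, which 6.57% of windows held. These matches are letters in a window and not measured binding.

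Reads of FCGR1A cannot be fully separated from those of its near-identical copies. Of all 100-base windows of its annotated transcripts, 48.5% occur identically in another annotated gene. FCGR1B (FCGR1BP in RefSeq), a copy on the same chromosome, had 643, 615 and 579 normalized reads with shRASSF2-1 and 1591, 1585 and 1849 with shRASSF2-2, against 492, 705 and 837 with shCTRL. The shRASSF2-2 libraries were the highest, and the others overlapped. Its log2 fold change was -0.11 with shRASSF2-1 (limma adjusted p = 0.580; -0.45, adjusted p = 0.00234, in the 7 libraries) and 1.33 with shRASSF2-2 (limma adjusted p = 4.95e-05). FCGR1CP, a pseudogene copy, averaged 342 ± 6.05 with shRASSF2-1 and 900 ± 62.4 with shRASSF2-2, against 456 ± 62.6 with shCTRL, and was called down (-0.40) and up (0.99).

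The ratio of FCGR1B to FCGR1A was 0.616 ± 0.050 with shRASSF2-1 and 0.755 ± 0.041 with shRASSF2-2, against 0.311 ± 0.034 with shCTRL (SD, n = 3 each). Every knockdown library had a higher ratio than every control library. The 3 copies together summed to 1951 ± 19.8 normalized reads with shRASSF2-1 and 4790 ± 280.5 with shRASSF2-2, against 3291 ± 568.5 with shCTRL. The family sum of shRASSF2-2 thus exceeded every control library, although FCGR1A alone did not. How the authors' counting treated reads that match several copies was not given in the sources used here.

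FCGR2B (CD32B; Entrez 2213, chromosome 1, 161647243 to 161678654, plus strand) was near the detection limit except with shRASSF2-2. It had 3.81, 5.30 and 0.907 normalized reads with shRASSF2-1 and 163, 197 and 167 with shRASSF2-2, against 9.68, 8.30 and 3.75 with shCTRL. These rest on 11 reads in all with shRASSF2-1, 470 with shRASSF2-2 and 22 with shCTRL. All shRASSF2-2 libraries were far above the other 6, which overlapped one another. FCGR2B rose by 4.50 with shRASSF2-2 (SE 0.480, limma adjusted p = 1.57e-05), its value was -1.01 with shRASSF2-1 (limma adjusted p = 0.0970), and the hairpins differed by 5.51 (limma adjusted p = 4.12e-06). Without control replicate 3, or without shRASSF2-1 replicate 2, the value with shRASSF2-1 was called, at -1.37 and -1.36.

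FCGR2C, which arose from FCGR2A and FCGR2B by unequal crossover, moved as FCGR2B did. It had 10.5, 3.54 and 6.35 normalized reads with shRASSF2-1 and 230.1, 182 and 233 with shRASSF2-2, against 9.68, 6.64 and 7.50 with shCTRL. Its log2 fold change was 4.60 with shRASSF2-2 (limma adjusted p = 1.32e-06) and -0.29 with shRASSF2-1 (limma adjusted p = 0.516). Of the 100-base windows of FCGR2B, 26.2% occur in FCGR2C and 2.97% in FCGR2A, so the division of reads between FCGR2B and FCGR2C is uncertain. Their sum was 10.1 ± 3.69 with shRASSF2-1 and 391 ± 10.7 with shRASSF2-2, against 15.2 ± 4.06 with shCTRL. Of the 100-base windows of FCGR2A, 12.1% occur in another annotated gene, and 7.81% in FCGR2C.

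**Figure D3:**
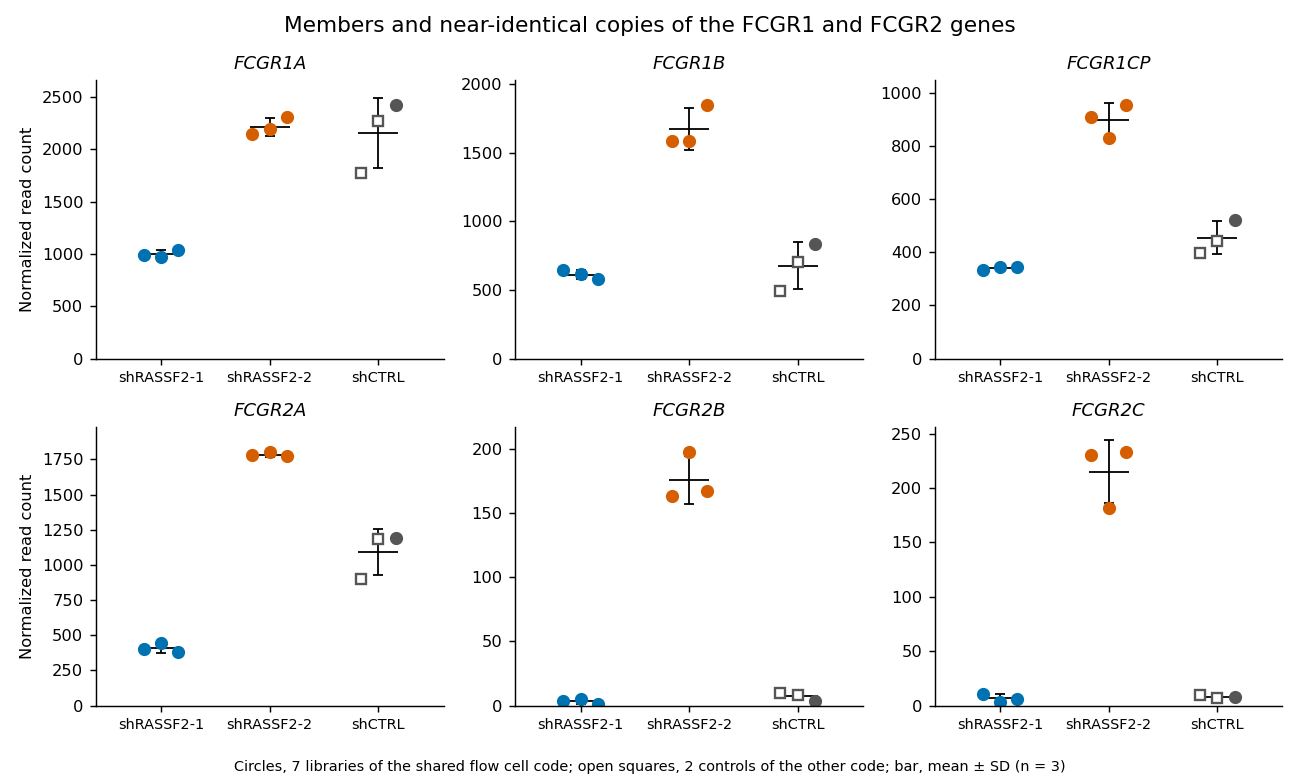
Normalized read counts (vertical axis, linear from 0, a scale per gene) of FCGR1A and its copies FCGR1B and FCGR1CP, and of FCGR2A, FCGR2B and FCGR2C, in each library of shRASSF2-1, shRASSF2-2 and shCTRL; bars are mean ± SD with n = 3. FCGR1B and FCGR1CP were highest with shRASSF2-2, where FCGR1A overlapped the controls, and FCGR2B and FCGR2C were both near 0 outside shRASSF2-2.

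Even with shRASSF2-2, transcripts of the inhibitory receptor were fewer than those of the activating one. Per kilobase of annotated exon, FCGR2B made up 0.891% ± 0.554 of FCGR2A and FCGR2B together with shRASSF2-1 and 10.0% ± 0.880 with shRASSF2-2, against 0.782% ± 0.422 with shCTRL. The share with shRASSF2-2 was above every other library, and the shares of shRASSF2-1 and shCTRL overlapped. B cells also express FCGR2B. The summed level of the 5 B cell markers in the table, of 7 listed, was 278 to 298 with shRASSF2-1 and 1492 to 1637 with shRASSF2-2, against 652 to 1260 with shCTRL. PAX5 averaged 37.6 with shRASSF2-1 and 1398 with shRASSF2-2, against 691 with shCTRL, and CD79A, a chain of the B cell receptor, averaged 1.52 and 5.57, against 5.22. The part of these genes in the FCGR2B values was not tested.

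FCGR2B has more than a single start in RefSeq, and the window of the downstream one is shown because it holds 5 motif matches. It covers chr1:161662893-161663142 on the plus strand, and capitals mark the matches.
FCGR2B: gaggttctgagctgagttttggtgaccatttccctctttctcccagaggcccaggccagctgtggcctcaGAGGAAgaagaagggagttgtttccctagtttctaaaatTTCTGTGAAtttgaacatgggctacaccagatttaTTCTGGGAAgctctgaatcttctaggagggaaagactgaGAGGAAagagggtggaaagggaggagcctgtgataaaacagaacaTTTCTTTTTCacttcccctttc
There were 2 PU.1 cores (at -180 and -67), 2 GAS matches (at -141 and -106) and, on the other strand at -22, a match to the core of the interferon-stimulated response element (ISRE; GAAA, any 2 bases, GAAA), which 3.02% of all windows held. The window of the upstream start had 0 matches. Which start THP-1 cells use cannot be read from gene counts. Over the 19 windows of the 10 genes of the list, 5 windows held a PU.1 core, a share near the 23.6% of all windows. They belong to FCGR1A, FCGR2A, FCGR2B, LILRB3 and LILRB4, and the windows of FCER1G and FCGRT held none of the motifs searched.

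**Figure D4:**
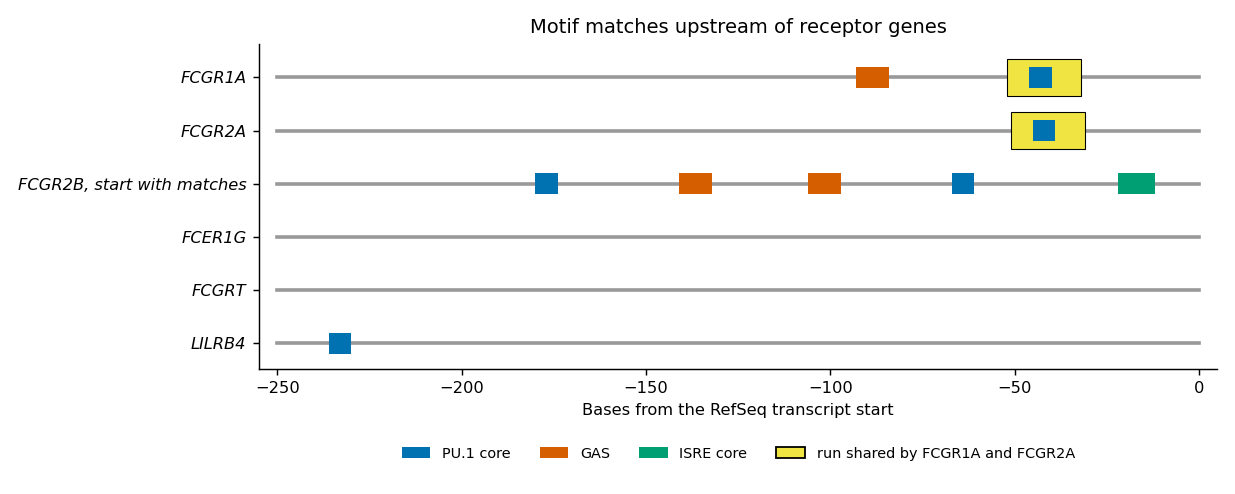
Positions of motif matches on either strand (coloured boxes) in the 250 bases before the RefSeq start (horizontal axis, bases from the start) of 6 genes, with 1 of the starts of FCGR2B shown. The run shared by FCGR1A and FCGR2A lies at the same distance from both starts within 1 base, and the windows of FCER1G and FCGRT are empty.

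FCGR3A (CD16A; Entrez 2214, chromosome 1, 161541759 to 161550737, minus strand) was scarce in all groups and highest with shRASSF2-2. It had 7.62, 34.5 and 7.26 normalized reads with shRASSF2-1 and 81.6, 35.2 and 50.6 with shRASSF2-2, against 0, 3.32 and 11.2 with shCTRL. The shRASSF2-2 libraries were above all others, but the lowest of them, 35.2, was close to shRASSF2-1 replicate 2. FCGR3A rose with shRASSF2-2 by 3.84 (SE 0.862, 95% interval 1.92 to 5.75, limma adjusted p = 0.00289). This value was 2.13 in the 7 libraries with a common flow cell code (adjusted p = 0.0217) and was not called with the code as a covariate (limma adjusted p = 0.104). With shRASSF2-1 the log2 fold change was 1.86 (limma adjusted p = 0.0899; 0.15 in the 7 libraries).

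Between the hairpins FCGR3A differed by 1.98 (limma adjusted p = 0.0714), and by DESeq2 the difference was called (1.75, adjusted p = 0.0416). Without shRASSF2-1 replicate 2, which had 39 of the 55 reads of its group, it was 2.67 and called (limma adjusted p = 0.0317). Natural killer cells express FCGR3A as well. The summed level of the 4 natural killer cell markers in the table, of 7 listed, was 53.3 to 83.1 with shRASSF2-1 and 97.6 to 118 with shRASSF2-2, against 138 to 143 with shCTRL. The lower sums came from NKG7, which averaged 34.7 and 28.5, against 112. NCAM1 averaged 20.4 and 50.4, against 14.6, and KLRF1 8.77 and 25.5, against 11.9. GNLY averaged 1.82 and 4.09, against 1.27. The part of these genes in the FCGR3A values was not tested. Of the 100-base windows of FCGR3A, 12.8% occur in FCGR3B, for which no value is given here.

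FCER1G (common gamma chain; Entrez 2207, chromosome 1, 161215295 to 161219245, plus strand) was the most abundant member per kilobase and rose with both hairpins. It had 5181, 4050 and 4074 normalized reads with shRASSF2-1 and 11303, 10575 and 12542 with shRASSF2-2, against 2027, 3091 and 3674 with shCTRL. The groups did not overlap. Against shCTRL, FCER1G rose by 0.63 in shRASSF2-1 cells (SE 0.192; limma adjusted p = 0.0171). In shRASSF2-2 cells it rose by 2.01 (SE 0.192; limma adjusted p = 6.85e-06), and shRASSF2-2 exceeded shRASSF2-1 by 1.38 (limma adjusted p = 0.000134). The rise with shRASSF2-1 was smaller within the shared flow cell code, at 0.26 (adjusted p = 0.0965; 0.374 with the code as a covariate). It was 0.39 without control replicate 1 (limma adjusted p = 0.00543) and 0.51, not called, without shRASSF2-1 replicate 1 (limma adjusted p = 0.0726). With scaling by total reads it was 1.01.

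Per kilobase of exon, which allows levels of different genes to be compared, FCER1G averaged 4826 normalized reads with shRASSF2-1 and 12485 with shRASSF2-2, against 3189 with shCTRL. FCGRT followed with 917 and 2934, against 1035, then FCGR1A with 457 and 1016, against 989, and FCGR2A with 169 and 739, against 452. In the controls the levels of FCGRT (SD 129) and FCGR1A (SD 155) did not differ beyond their spread. The level of FCGR1A also depends on how reads shared with its copies were counted, so its level beside FCGRT is uncertain. LILRB2 had 20.8 and 27.5, against 7.72, and FCGR2B had 1.57 and 82.6, against 3.40. FCGR3A averaged 6.64 and 22.5, against 1.96, and LILRB1 3.11 and 6.81, against 2.64. FCER1G was the most abundant of these members per kilobase in every group.

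TYROBP and SYK, other genes of ITAM signalling, differed from FCER1G in direction, TYROBP with shRASSF2-1 and SYK with both hairpins. TYROBP, which encodes DAP12, another ITAM adaptor, had 1159, 1139 and 1023 normalized reads with shRASSF2-1 and 10513, 10823 and 11254 with shRASSF2-2, against 1120, 2100 and 2260 with shCTRL. It rose with shRASSF2-2 by 2.64 (limma adjusted p = 1.94e-06). With shRASSF2-1 it fell by 0.66 (limma adjusted p = 0.0232), although the groups overlapped through control replicate 1. That call did not survive leaving out control replicate 2 (-0.52) or 3 (-0.47), or shRASSF2-1 replicate 2 (-0.68) or 3 (-0.60), or with only the 2 groups fitted (limma adjusted p = 0.0585), and in the 7 libraries the value was -1.03. The ratio of TYROBP to FCER1G was 0.252 ± 0.029 with shRASSF2-1 and 0.950 ± 0.065 with shRASSF2-2, against 0.616 ± 0.063 with shCTRL, and the groups did not overlap.

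SYK, the kinase that binds phosphorylated ITAMs, fell with both hairpins. It had 2660, 2567 and 2755 normalized reads with shRASSF2-1 and 2273, 2549 and 2158 with shRASSF2-2, against 4070, 3795 and 3529 with shCTRL. The log2 fold changes were -0.51 and -0.71 (limma adjusted p = 0.000675 and 5.17e-05). Every knockdown library was below every control library. Among 36 listed ITAM adaptors and kinases, 35 were tested. The shRASSF2-1 comparison had 7 up, 14 down and 14 not called (median -0.16), and the shRASSF2-2 comparison 18 up, 11 down and 6 not called (median 0.32). Of all genes, 26.9% rose and 29.2% fell with shRASSF2-1, and 31.8% and 29.1% with shRASSF2-2.

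Other named genes of that list differed from one another. The Src-family kinase LYN had a log2 fold change of -0.16 with shRASSF2-1 (not called) and rose by 1.23 with shRASSF2-2, and SRC rose by 1.18 and 2.95. The ubiquitin ligase CBLB rose by 0.60 and 2.31. PIK3CB, a catalytic subunit of phosphoinositide 3-kinase, fell by 0.73 and 1.33. The adaptor PIK3AP1 fell by 1.79 with shRASSF2-1 and was not called with shRASSF2-2 (0.24).

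**Figure D5:**
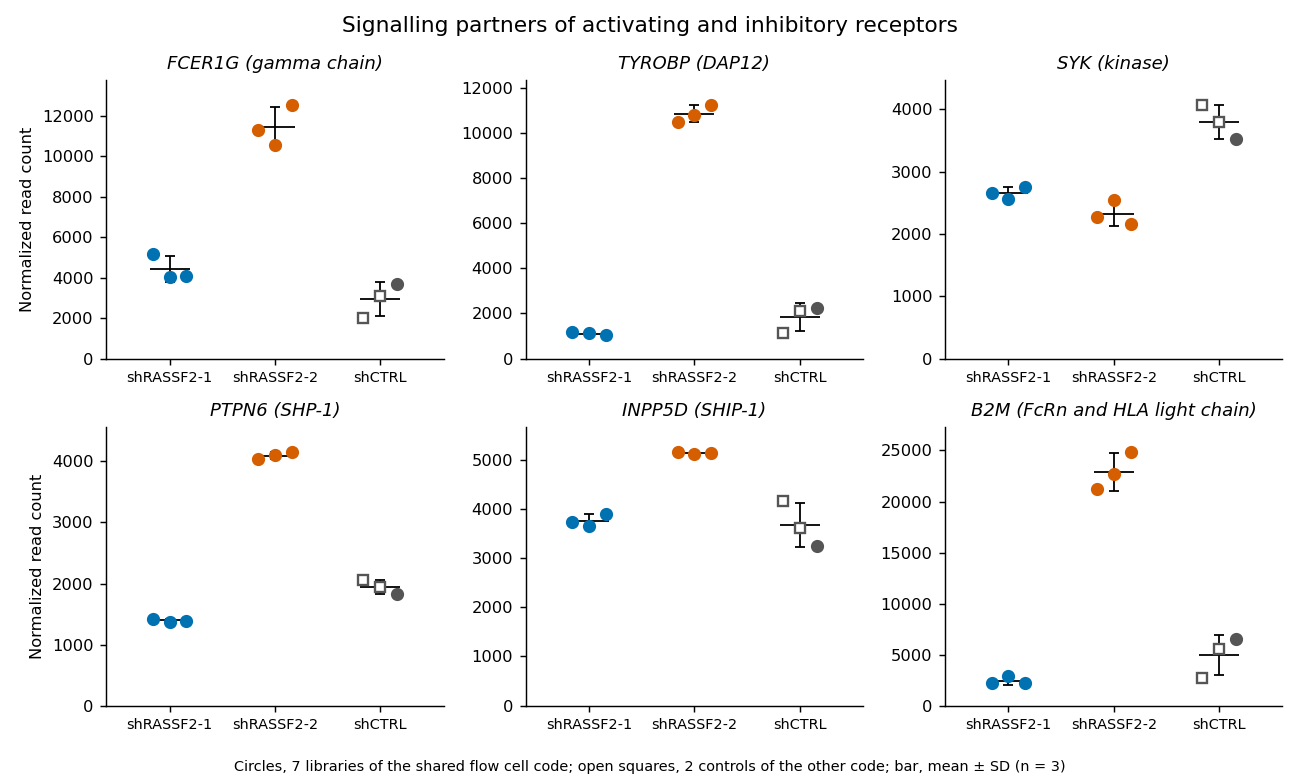
Normalized read counts (vertical axis, linear from 0, a scale per gene) of FCER1G, TYROBP, SYK, PTPN6, INPP5D and B2M in each library of shRASSF2-1, shRASSF2-2 and shCTRL; bars are mean ± SD with n = 3. TYROBP and B2M were several times higher with shRASSF2-2 than in either other group, while SYK was lower with both hairpins than with shCTRL.

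FCGRT (FcRn heavy chain; Entrez 2217, chromosome 19, 49512661 to 49526428, plus strand) rose with shRASSF2-2. It had 1857, 1829 and 1903 normalized reads with shRASSF2-1 and 5961, 5968 and 5945 with shRASSF2-2, against 2403, 1939 and 1965 with shCTRL. The shRASSF2-2 libraries lay far above the rest, and those of shRASSF2-1 just below the lowest control. FCGRT rose with shRASSF2-2 by 1.51 (SE 0.0905, limma adjusted p = 2.17e-07), and its difference between the hairpins was 1.68 (limma adjusted p = 1.22e-07). With shRASSF2-1 its log2 fold change was -0.17 (95% interval -0.37 to 0.03, limma adjusted p = 0.141), and 0.21, not called, with scaling by total reads. No 100-base window of FCGRT or FCER1G occurs in another annotated gene (0% for each).

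B2M, the light chain of FcRn and of HLA class I, had 2175, 2876 and 2256 normalized reads with shRASSF2-1 and 21203, 22674 and 24836 with shRASSF2-2, against 2753, 5578 and 6519 with shCTRL. Its log2 fold changes were -0.94 (limma adjusted p = 0.0112) and 2.30 (limma adjusted p = 2.67e-05). The fall with shRASSF2-1 was -1.43 in the 7 libraries. Over all libraries these groups overlapped, as shRASSF2-1 replicate 2 (2876) exceeded control replicate 1 (2753). FCGRT and B2M were thus both called up with shRASSF2-2, while B2M alone was called with shRASSF2-1.

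LILRB2 (ILT4; Entrez 10288, chromosome 19, 54273812 to 54281110, minus strand) rose with both hairpins. It had 68.6, 53.0 and 66.2 normalized reads with shRASSF2-1 and 85.0, 84.0 and 79.1 with shRASSF2-2, against 18.1, 21.6 and 30.0 with shCTRL. Every knockdown library was above every control library. LILRB2 rose with shRASSF2-1 by 1.41 (SE 0.228, limma adjusted p = 0.000428). It rose with shRASSF2-2 by 1.82 (SE 0.228, limma adjusted p = 5.37e-05), and the rises were 1.03 and 1.43 in the 7 libraries, both called. Between the hairpins it differed by 0.40 (95% interval -0.10 to 0.91, limma adjusted p = 0.154). The authors' deposited table gives LILRB2 a log2 fold change of 1.57 (adjusted p-value 2.06e-07).

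LILRB1 (ILT2; Entrez 10859, chromosome 19, 54616322 to 54638022, plus strand) was at the edge of what this depth can show. It had 9.53, 16.8 and 6.35 normalized reads with shRASSF2-1 and 21.5, 19.3 and 30.8 with shRASSF2-2, against 1.21, 12.5 and 14.1 with shCTRL. The shRASSF2-2 libraries were above the rest, and those of shRASSF2-1 and shCTRL overlapped. The log2 fold change with shRASSF2-2 was 1.67 (95% interval 0.15 to 3.20, limma adjusted p = 0.0559), and 0.70 in the 7 libraries (adjusted p = 0.304). It was called without control replicate 2 (2.08) or control replicate 3 (2.16). With shRASSF2-1 it was 0.54 (limma adjusted p = 0.527), and -0.44 in the 7 libraries and -0.36 without control replicate 1. Control replicate 1 held 1 of the 31 reads of its group. Between the hairpins it was 1.13 (limma adjusted p = 0.182; called in the 7 libraries, adjusted p = 0.0220).

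LILRB4 (ILT3; Entrez 11006, chromosome 19, 54662985 to 54668718, plus strand) was not tested. It had 0.953, 6.19 and 11.8 normalized reads with shRASSF2-1 and 0, 0 and 6.59 with shRASSF2-2, against 1.21, 5.81 and 3.75 with shCTRL. The groups overlapped, and a difference was not detectable at this depth, where a count of 0 still allows 3 reads.

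LILRB1 and LILRB2 are shown side by side because the windows before their starts are close copies, as their genes are. The LILRB2 window is chr19:54281111-54281360 on the minus strand and the LILRB1 window chr19:54630234-54630483 on the plus strand, each for 1 of 3 RefSeq starts. Capitals mark an identical run of 86 bases.
LILRB2: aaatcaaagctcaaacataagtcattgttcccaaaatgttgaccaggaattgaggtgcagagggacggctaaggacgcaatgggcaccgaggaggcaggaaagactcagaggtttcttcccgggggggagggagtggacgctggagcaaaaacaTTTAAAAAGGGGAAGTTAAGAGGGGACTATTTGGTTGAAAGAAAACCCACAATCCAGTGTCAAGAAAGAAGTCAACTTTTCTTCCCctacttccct
LILRB1: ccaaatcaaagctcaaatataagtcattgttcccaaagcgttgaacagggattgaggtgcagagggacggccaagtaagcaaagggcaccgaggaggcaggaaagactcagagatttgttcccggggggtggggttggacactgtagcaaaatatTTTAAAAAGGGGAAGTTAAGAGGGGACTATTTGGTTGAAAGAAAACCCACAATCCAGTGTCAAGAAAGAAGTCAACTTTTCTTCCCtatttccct
The run was found in 3 of the 35116 windows, all of LILRB1 or LILRB2, and lies at -96 to -11 in LILRB2 and at -95 to -10 in LILRB1. Neither window holds a PU.1 core, a GAS match or an ISRE core. Of the transcribed 100-base windows, 2.75% of those of LILRB2 and 2.32% of those of LILRB1 are shared between the pair.

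Of 14 other LILR, LAIR and neighbouring receptor genes listed for this chromosome 19 complex, 4 were in the table and 2 were tested. LAIR1, a collagen-binding inhibitory receptor, averaged 288 ± 31.9 with shRASSF2-1 and 326 ± 16.4 with shRASSF2-2, against 293 ± 86.1 with shCTRL, and its log2 fold changes of 0.02 and 0.20 were not called. The other gene tested, OSCAR, an activating receptor that pairs with the common gamma chain, was named after its values were seen. It averaged 20.7 with shRASSF2-1 and 37.0 with shRASSF2-2, against 5.60 with shCTRL, and was called with both hairpins. Thus 1 of 2 rose in each comparison with shCTRL and 0 fell by limma, too few genes to read as a pattern. Beside this, 26.9% of all genes rose and 29.2% fell with shRASSF2-1, and 31.8% and 29.1% with shRASSF2-2. LILRA6, a near-identical relative of LILRB3, had 1 read in all with shRASSF2-1 and 13 with shRASSF2-2, and was listed at 0 in all 3 control libraries. It was not tested. Build hg38 carries alternate sequences of the LILR region, and whether the alignment used them, and its part in the low values of the LILR genes, was not tested.

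Of 12 ligands listed for LILRB receptors, 10 were in the table and 8 were tested. Of all genes, 26.9% rose and 29.2% fell with shRASSF2-1, and 31.8% and 29.1% with shRASSF2-2. The shRASSF2-1 comparison had 4 up, 1 down and 3 not called (median 1.55), and the shRASSF2-2 comparison 7 up and 1 not called (median 2.22). These counts include scarce genes, named after their values were seen. HLA-B averaged 23.4 with shRASSF2-1 (not called) and 37.9 with shRASSF2-2 (called), against 7.77 with shCTRL, and HLA-C averaged 15.7 and 18.0 (both called), against 2.71. In the 7 libraries, 2 rose and 1 fell with shRASSF2-1 and 4 rose with shRASSF2-2. APOE, a reported ligand of LILRB4, averaged 229 ± 178 with shRASSF2-1 and 1049 ± 77.4 with shRASSF2-2, against 62.4 ± 29.9 with shCTRL, with log2 fold changes of 1.68 (0.96, not called, in the 7 libraries; 1.08 without shRASSF2-1 replicate 2) and 4.15. Fibronectin (FN1) rose by 2.54 and 1.54. The rise of FN1 with shRASSF2-2 was lost in the 7 libraries (1.27), without control replicate 2 (1.37) and without shRASSF2-2 replicate 3 (1.13). FN1 had 248, 923 and 392, then 180, 155 and 392, against 79.8, 59.8 and 91.9. Of 8 epithelial and connective tissue markers in the table, SPARC had 75.3, 484 and 238 with shRASSF2-1. SPARC had 178, 169 and 538 with shRASSF2-2, against 0, 2.49 and 69.4 with shCTRL. KRT18 and KRT8 were also highest among controls in replicate 3 (156 and 198), but COL1A1 and PECAM1 were not (13.1 and 5206). They were named after their values were seen, and their part in the FN1 values was not tested. RTN4 had -0.23 (not called) and 0.99, OMG rose by 2.72 and 2.91, and HLA-E was not called (0.11 and 1.64).

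The effectors of inhibitory receptors were called in both directions. PTPN6, which encodes SHP-1, had 1426, 1373 and 1393 normalized reads with shRASSF2-1 and 4033, 4104 and 4152 with shRASSF2-2, against 2051, 1947 and 1833 with shCTRL. It fell with shRASSF2-1 by 0.47 and rose with shRASSF2-2 by 1.08 (limma adjusted p = 0.000283 and 4.69e-07). INPP5D, which encodes SHIP-1, the partner of CD32B, averaged 3760 ± 130 with shRASSF2-1 and 5140 ± 15.8 with shRASSF2-2, against 3674 ± 456 with shCTRL, and rose with shRASSF2-2 (0.49, limma adjusted p = 0.000965). With shRASSF2-1 it was 0.04 (limma adjusted p = 0.734), and 0.21 and called in the 7 libraries. Of 9 effectors tested, 3 were up, 3 down and 3 not called in the shRASSF2-1 comparison (median 0.18), and 7 up, 1 down and 1 not called in that of shRASSF2-2 (median 0.49). Of all genes, 26.9% rose and 29.2% fell with shRASSF2-1, and 31.8% and 29.1% with shRASSF2-2.

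PTPN11, which encodes SHP-2, fell by 0.38 and 0.52, and its call with shRASSF2-1 ended with the flow cell code as a covariate (-0.23, limma adjusted p = 0.104). The docking proteins DOK2 and DOK3 rose, DOK2 by 0.27 and 1.26 and DOK3 by 0.37 and 0.39. Both calls of DOK3 ended with that covariate (0.31 and 0.33, limma adjusted p = 0.0819 and 0.0607). The call of DOK2 with shRASSF2-1 ended when control replicate 2 (0.25) or 3 (0.23) or shRASSF2-1 replicate 3 (0.24) was left out. CSK, a kinase that restrains Src-family kinases, fell by 0.49 with shRASSF2-1 and rose by 0.73 with shRASSF2-2.

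Other myeloid receptors listed as ITIM-bearing were called in both directions. Of 17 tested, 6 were up, 3 down and 8 not called in the shRASSF2-1 comparison (median 0.61), and 12 up, 4 down and 1 not called in that of shRASSF2-2 (median 1.20). Of all genes, 26.9% rose and 29.2% fell with shRASSF2-1, and 31.8% and 29.1% with shRASSF2-2. The list holds SIGLEC14, an activating receptor that pairs with DAP12, and CD200R1, which both lack an ITIM. Without them, 5 of 15 were up and 3 down with shRASSF2-1, and 11 up and 4 down with shRASSF2-2. SIRPA, the receptor of CD47, fell by 0.42 with shRASSF2-1 (-0.31, not called, with the flow cell code as a covariate, limma adjusted p = 0.0880) and rose by 1.03 with shRASSF2-2. SIGLEC5 (1.10 and 1.82), CLEC12A (2.31 and 1.14) and CD72 (1.18 and 2.83) rose with both hairpins. In the 7 libraries CLEC12A had 1.67 and 0.50, and the rise with shRASSF2-2 was not called with the code as a covariate (0.50, limma adjusted p = 0.0895). CD300A (-0.20, not called, and 1.20) and SIGLEC14 (0.03, not called, and 2.64) were called with shRASSF2-2 only among these comparisons with shCTRL, and differed between the hairpins by 1.40 and 2.61 (limma adjusted p = 2.77e-06 and 2.70e-08).

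Of 20 other Fc receptors and Fc receptor-like genes listed, 15 were in the table and 12 were tested. The shRASSF2-1 comparison had 1 up, 4 down and 7 not called (median -0.32), and the shRASSF2-2 comparison 10 up, 1 down and 1 not called (median 1.44). Of all genes, 26.9% rose and 29.2% fell with shRASSF2-1, and 31.8% and 29.1% with shRASSF2-2. The 12 include FCGR1B, FCGR1CP and FCGR2C, whose reads are not fully separate from those of members. They also include scarce genes such as FCER1A, named after its values were seen. It averaged 20.1 with shRASSF2-2, against 2.87 with shCTRL. FCER1A, FCGR2C, FCMR and PIGR passed the filter only through their shRASSF2-2 libraries, and MS4A2 only through the controls. FCER2, the low-affinity IgE receptor CD23, averaged 29.0 ± 13.8 with shRASSF2-1 and 165 ± 9.38 with shRASSF2-2, against 43.9 ± 18.5 with shCTRL, and rose with shRASSF2-2 (1.99, limma adjusted p = 0.00096). FCRL6 rose with both hairpins (1.60 and 1.55). TRIM21, a cytosolic Fc receptor and ubiquitin ligase, fell by 0.36 with shRASSF2-1 and rose by 0.86 with shRASSF2-2, and with scaling by total reads the value with shRASSF2-1 turned to 0.02, not called.

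Scaling mattered most for shRASSF2-1. With scaling by total reads, the median of all genes moved to 0.39 with shRASSF2-1 against shCTRL and to -0.41 with shRASSF2-2 against shRASSF2-1. Of the called genes, 72.9% were then up with shRASSF2-1, against 48.0% in the normalization deposited, and 28.4% between the hairpins, against 51.4%. Under that scaling FCGR1A and FCGR2A were still called down with shRASSF2-1, and TYROBP, SYK, PTPN6, B2M, FCGR1CP, PTPN11, CSK and SIRPA were not called.

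For each member the 3 genes with the most similar pattern were sought by Pearson's r of log2 values over the 9 libraries, among 12201 genes with a mean of at least 50. These r values describe libraries that fall into 3 groups. FCGR1A was most like MNDA, an interferon-inducible nuclear protein of myeloid cells (r = 0.998), which averaged 692 with shRASSF2-1 and 3334 with shRASSF2-2, against 3108 with shCTRL. NREP (0.995) and GLO1 (0.994) followed. FCGR2A was most like TOR1AIP1 (0.997), KCNMB1 (0.996) and the ubiquitin-like protein ISG15 (0.996). ISG15 averaged 188 with shRASSF2-1 and 14015 with shRASSF2-2, against 3332 with shCTRL, so it spanned a wider range than FCGR2A in the same order.

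Among the 3 genes most like FCGR2B were GUCY1A2 (0.989) and TMEM62 (0.988). FCER1G was most like TRIP4 (0.997), GNPTG (0.997) and C4orf33 (0.996), and FCGRT like MGAT1, FNIP2 and RBM47 (0.999, 0.999 and 0.998). LILRB2 was most like LOC100049716 (0.991), CTBS (0.990) and TVP23B (0.989). For the scarce members the values were lower, at 0.962 for FCGR3A with RRAGB, followed by KIAA1841 and FLVCR2 (0.960 and 0.957), and 0.975 for LILRB1 with KIFAP3, followed by IER2 and TSR2 (0.968 and 0.962).

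Further values of the authors' deposited table are given as deposited. FCER1G had a log2 fold change of 1.33 (adjusted p-value 0.00559), FCGR2B 2.00 (0.0283) and FCGR3A 2.06 (0.0105). FCGR1A had -0.40 (0.404), FCGRT 0.81 (0.151), LILRB1 0.73 (0.339) and LILRB4 0.15 (0.909). For FCGR1A, FCGR2A and FCGRT, which differed between the hairpins in the limma fit, that table gave no adjusted p-value under 0.05.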

How the data were processed

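The submitters' processing notes name build hg38 and the tools DESeq2 1.18.1, featureCounts 1.6.2, HISAT2 2.1.0 and Picard. Their roles, the annotation and the strand setting were not given in the sources used, and genes that overlap on either strand are uncertain. The deposited values are a normalized signal. Every value (100% in each library) was a whole multiple of 1 read's worth, to within 0.001, so values are read counts divided by a size factor, and reads were recovered. A log2 fold change with its adjusted p-value, from a single comparison by the authors, was deposited too.

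The members and lists were chosen with earlier results of these data known. Limma 3.58.1 in R 4.3.3 (limma-trend, pseudocount 1, group as the only term, all 9 libraries) was the main test; 3057 genes under the filter were not tested. As each group has 3 libraries, a gene high in a single group could pass the filter through that group alone. This holds for members and listed genes alike. A value of 0 allows up to 3 reads, by counting error only. edgeR 4.0.16 and DESeq2 1.42.0 on the recovered reads were alternatives. Scripts were tested on simulated data. Besides the members, up to 6 genes per list with a mean of at least 50 and the smallest p are named, plus near-identical copies, TYROBP, SYK, PTPN6, INPP5D and B2M. No pairing of libraries by replicate number was seen in their deviations from group means. Promoters are from RefSeq (GRCh38.p14), matched for 10 of 10 genes; other positions are GRCh38 from RefSeq's gene table and exon lengths from GENCODE. The table gives no symbol for 195 genes, with 0.0694% of reads. Some results that name certain genes are not reported here.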

Additional observations from a re-analysis of the deposited data

Results flagged for a closer look

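FCGR2A was singled out because its changes against shCTRL went in opposite directions with hairpins against the same target. The direct difference of shRASSF2-2 over shRASSF2-1 was 2.13 on the log2 scale (limma adjusted p = 1.24e-07), with means of 1783 ± 15.5 normalized reads in shRASSF2-2 cells and 408 ± 32.8 in shRASSF2-1 cells (SD, n = 3 each). The cause was not tested.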

How the results depend on the processing

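Of 504 member values under the alternatives, 475 kept their direction and side of the threshold, 18 became called, 4 lost the call and 7 changed sign without a call. The number of members that rose with shRASSF2-1 against shCTRL was 1 with the flow cell code as a covariate and 1 in the 7 libraries of the shared code, against 2 in all libraries; with each library left out it ranged from 1 to 3. The value of LILRB1 with shRASSF2-1 was -0.44 and that of FCGR1A with shRASSF2-2 -0.13 under both of these settings. No pairing of libraries by replicate number was seen (r of same-numbered deviations -0.156 to 0.120). With deviations from means of 3 libraries, this check cannot settle whether replicates were handled in pairs. With the replicate number as a block, the members called were 2 up and 2 down with shRASSF2-1, 6 and 0 with shRASSF2-2 and 5 and 0 between the hairpins, among 8289, 9126 and 8754 genes.

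With scaling by total reads, values with shRASSF2-1 changed sign for FCGRT (0.21), FCGR1B (0.26), FCGR2C (0.0426), TRIM21 (0.017), LYN (0.22, called), RTN4 (0.15) and CD300A (0.18), and between the hairpins for LAIR1 (-0.21), DOK3 (-0.37, called; -0.0202 by edgeR with TMM) and OMG (-0.20). LAIR1 with shRASSF2-1 was -0.0219 by edgeR with TMM, -0.0284 by edgeR with size factors and -0.0262 by DESeq2, and -0.20 under both flow cell settings, where it was -0.019 with shRASSF2-2. HLA-E with shRASSF2-1 was -0.38, -0.37 and -0.44 by edgeR with TMM, edgeR with size factors and DESeq2. None of the other sign changes was called. With each library left out, values with shRASSF2-1 ranged from -0.36 to 1.03 for LILRB1, -0.33 to 0.0543 for FCGR1B, -0.62 to 0.0534 for FCGR2C, -0.0439 to 0.13 for INPP5D, -0.25 to 0.18 for LAIR1, -0.92 to 1.11 for HLA-E and -0.075 to 0.12 for SIGLEC14. They ranged with shRASSF2-2 from -0.0831 to 0.14 for FCGR1A and -0.0709 to 0.36 for LAIR1, and between the hairpins from -0.12 to 0.0802 for FCRL6, -0.0439 to 0.0548 for DOK3 and -0.0588 to 0.42 for OMG. Causes were not tested.

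Depth limits FCGR2B outside shRASSF2-2, FCGR3A, LILRB1 and LILRB4, which rest on few reads per library. Near-identical copies limit FCGR1A, FCGR2A, FCGR2B and FCGR3A. The controls span 2 flow cell codes and the knockdown libraries 1, so in the comparisons with shCTRL code and hairpin are partly mixed.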
